A study of Mus musculus with 2 samples.

Results

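The genes described here are the enzymes that build cholesterol from acetyl-CoA, the regulators that set the amount of those enzymes, and a few enzymes of fatty acid synthesis and desaturation, measured in single cells of the mouse hippocampus. The list names 29 genes, of which 28 had a row among the 30223 genes of the deposited table; Fdps was not analysed here. The list was chosen by the levels of Hmgcs1 and Aacs, which were lower in astrocyte-like cells of the knock-in library than in those of the wild-type library, so the values of these 2 genes in that comparison are given as a description only. Cells came from the hippocampi of mice of the strain C57Bl.6/J that were either wild-type controls or homozygous for the knock-in allele Pigv341E, which alters a mannosyltransferase of the pathway that makes glycosylphosphatidylinositol anchors. The 8 hippocampi of 4 mice were pooled for each genotype, and their age and sex are not given in the labels. Each genotype was thus 1 library with no replicate, no test between genotypes was possible, and effects of genotype and of library cannot be told apart.

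Cholesterol synthesis starts when acetyl-CoA units are joined to HMG-CoA, which is reduced to mevalonate. Mevalonate is turned into isoprene units that are joined to squalene, and squalene is folded into a sterol and trimmed to cholesterol. The genes of the pathway are switched on together by the transcription factor SREBP-2, which its partner SCAP carries out of the endoplasmic reticulum when sterols are scarce and which INSIG proteins hold back when sterols are plentiful. The related factor SREBP-1 acts mainly on fatty acid synthesis. The brain makes its own cholesterol, since the blood-brain barrier keeps out that of the blood, and in the adult brain astrocytes supply much of it to neurons on particles that carry apolipoprotein E, while oligodendrocytes use it for myelin.

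Promoter sequences of 5 members are shown to set genes that differed in astrocyte-like cells beside one that differed little: Hmgcs1, Aacs, Msmo1 and Cyp51 were past 1.5-fold lower in the knock-in library (Fdft1, also past it, is not shown), while Fads2, with a log2 ratio of -0.11, was not. Each is 1 RefSeq promoter window on GRCm38.p6, from 250 bases before to 50 bases after the transcription start, written on the strand of the gene from 5′ to 3′. Capitals mark matches, on either strand, to the sterol regulatory element searched as TCACNCCAC and to the CCAAT box searched as CCAAT, which reads ATTGG on the other strand. The windows are chr13:119690101-119690400 (plus strand) for Hmgcs1, chr8:64733529-64733828 (minus strand) for Msmo1, chr5:4104648-4104947 (minus strand) for Cyp51, chr5:125475623-125475922 (plus strand) for Aacs and chr19:10101454-10101753 (minus strand) for Fads2.
Hmgcs1: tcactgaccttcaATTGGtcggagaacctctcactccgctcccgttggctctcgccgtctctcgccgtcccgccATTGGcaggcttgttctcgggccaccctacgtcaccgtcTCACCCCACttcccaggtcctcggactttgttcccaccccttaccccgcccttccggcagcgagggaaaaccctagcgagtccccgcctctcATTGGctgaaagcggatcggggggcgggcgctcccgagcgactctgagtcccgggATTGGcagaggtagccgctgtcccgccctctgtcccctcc
Msmo1: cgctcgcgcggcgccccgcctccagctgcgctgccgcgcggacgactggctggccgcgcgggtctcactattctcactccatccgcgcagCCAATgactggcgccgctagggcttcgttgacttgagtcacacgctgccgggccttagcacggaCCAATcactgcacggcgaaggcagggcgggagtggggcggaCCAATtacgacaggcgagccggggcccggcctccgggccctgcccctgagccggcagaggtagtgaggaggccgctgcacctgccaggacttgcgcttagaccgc
Cyp51: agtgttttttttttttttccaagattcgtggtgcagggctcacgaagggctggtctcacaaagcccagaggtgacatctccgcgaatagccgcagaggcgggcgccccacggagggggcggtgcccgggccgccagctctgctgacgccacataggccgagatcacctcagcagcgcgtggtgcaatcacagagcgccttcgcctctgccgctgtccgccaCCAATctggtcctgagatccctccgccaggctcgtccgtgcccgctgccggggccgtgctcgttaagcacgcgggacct
Aacs: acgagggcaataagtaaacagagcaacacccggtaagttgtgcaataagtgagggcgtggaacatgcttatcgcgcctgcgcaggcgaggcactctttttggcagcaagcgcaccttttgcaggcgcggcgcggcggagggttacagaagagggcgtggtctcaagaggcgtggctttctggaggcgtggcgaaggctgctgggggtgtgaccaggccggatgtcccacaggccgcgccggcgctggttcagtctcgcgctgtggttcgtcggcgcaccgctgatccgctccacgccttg
Fads2: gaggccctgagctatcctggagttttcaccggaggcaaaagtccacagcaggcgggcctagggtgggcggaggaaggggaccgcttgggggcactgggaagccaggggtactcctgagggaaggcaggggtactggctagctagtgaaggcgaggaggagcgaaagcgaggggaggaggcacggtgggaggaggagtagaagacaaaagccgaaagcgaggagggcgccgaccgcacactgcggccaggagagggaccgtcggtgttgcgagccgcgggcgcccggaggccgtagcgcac
The Hmgcs1 window held 1 match to the sterol regulatory element, TCACCCCAC, and 4 CCAAT boxes. The Msmo1 window held 3 CCAAT boxes and that of Cyp51 1, while the windows of Aacs and Fads2 held neither motif, which says only that these letters are not in these windows. Of the 28 members, 24 had a promoter in the RefSeq table. A CCAAT box was present in 20 of these 24 (83.3%), against 37.4% of all 32851 promoters and 41.1% of 27025 genes. The sterol regulatory element was present in 1 of 24 (4.17%), against 1.24% of promoters and 1.44% of genes. That 1 member is Hmgcs1, which chose the list. The E box CACGTG was present in 5 of 24 (20.8%: Dhcr7, Hsd17b7, Insig1, Sc5d and Scap), against 7.15% of promoters and 8.09% of genes.

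There were 7094 wild-type and 8836 knock-in cells, with median summed values per cell of 8631 and 9608 and medians of 3122 and 3736 detected genes. Clustering of both libraries together gave 34 clusters, of which 25 were named as 14 classes from marker genes including the pyramidal and dentate granule neurons of the hippocampus, and 9 stayed unnamed (11.7% of wild-type and 15% of knock-in cells). The median share of mitochondrially encoded transcripts was 0.123% in wild-type and 0.219% in knock-in cells. The libraries shared 28 cell barcodes. A level below is the sum of a gene's values in the cells of a class, per 10000 of all values of those cells; it is not scaled for the length of the gene, so levels of different genes are not compared. A log2 ratio is the knock-in over the wild-type level, with 0.1 added to both for single genes and nothing added for sums over genes. Ratios were read where the mean level over both libraries reached 0.2, in the 11 classes of which both libraries held 50 or more cells, and a gene was called lower or higher past 1.5-fold.

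Sterol enzymes were highest in astrocyte-like cells in both libraries. The summed level of the 17 enzymes of the pathway (Aacs left out) was 9.94 per 10000 over 608 wild-type and 6.25 over 828 knock-in astrocyte-like cells. No other class passed 3.74 in either library, the 3 smaller classes included. Choroid plexus-like cells came second in both libraries (3.74 wild-type, 3.40 knock-in), with interneuron-like cells at 3.51 and 3.09, pyramidal neuron-like cells at 3.28 and 2.88 and mature oligodendrocyte-like cells at 2.89 and 3.27. Among these 11 classes, the lowest sums were those of oligodendrocyte precursor-like cells (1.58 and 1.87) and dentate granule neuron-like cells (1.65 and 1.90). The astrocyte-like cells thus stood apart from every other class in both libraries, while the classes from 2.88 to 3.74 lay close together and changed places between the libraries.

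**Figure D1:**
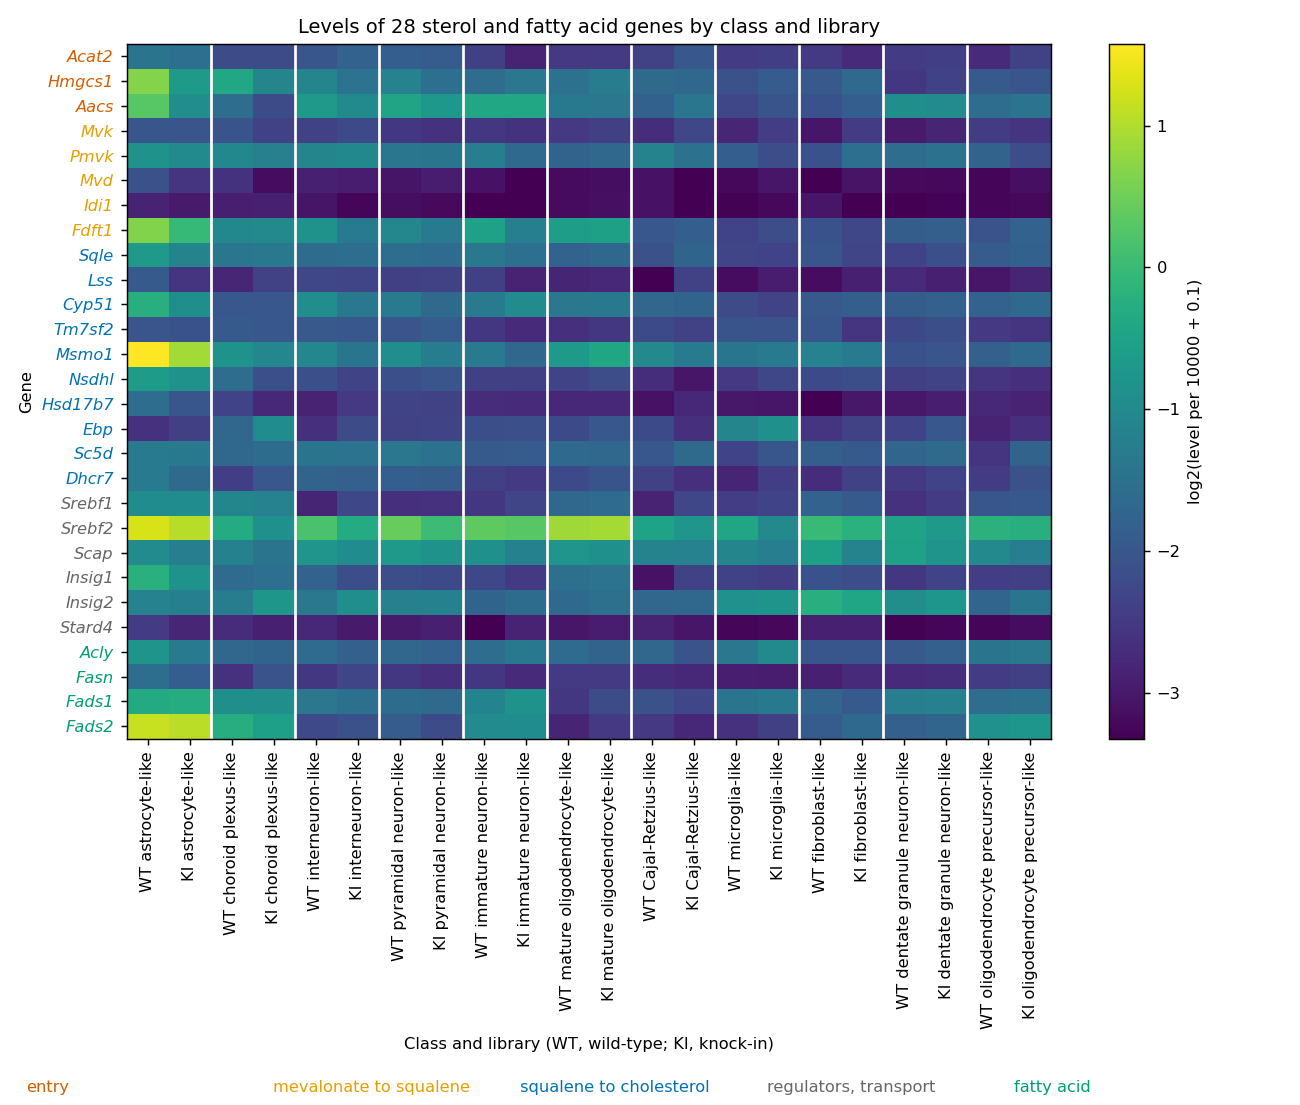
Level of each of 28 genes (rows, coloured by role) in 11 cell classes, with the wild-type (WT) and knock-in (KI) library side by side; the colour scale is log2 of the level per 10000 plus 0.1. The astrocyte-like columns hold the highest values of most rows.

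Of the 28 members, 24 had their highest level among the 11 classes in astrocyte-like cells of the wild-type library, 20 in those of the knock-in library, and 20 in both. Msmo1, the C4-methylsterol oxidase, was at 2.88 and 1.76 per 10000 in astrocyte-like cells of the wild-type and the knock-in library, and mature oligodendrocyte-like cells came next at 0.531 and 0.643. Fads2, the delta-6 desaturase of polyunsaturated fatty acids, was at 2.15 and 1.99 in astrocyte-like and 0.724 and 0.580 in choroid plexus-like cells. Srebf2, which encodes SREBP-2, was spread more evenly. Its level was 2.34 and 1.98 in astrocyte-like cells and 1.74 and 1.78 in mature oligodendrocyte-like cells, and it stood at 1.25 and 0.922 in pyramidal neuron-like and 1.03 and 0.703 in interneuron-like cells. Of Msmo1, Fads2 and Srebf2, the last thus differed least between astrocyte-like cells and the class that came next.

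A few members were highest elsewhere in both libraries. Ebp, the sterol delta-8,delta-7 isomerase, was highest in microglia-like cells (0.366 and 0.450) and was at 0.0614 and 0.0891 in astrocyte-like cells. Insig2 was highest in fibroblast-like cells (0.746 and 0.650), and Scap in dentate granule neuron-like cells (0.601 and 0.479). Scap varied little between classes, with its lowest values, 0.346 and 0.267, in choroid plexus-like cells. Tm7sf2, a sterol reductase, was highest in choroid plexus-like cells of the wild-type (0.162) and pyramidal neuron-like cells of the knock-in library (0.169), and Idi1, Lss, Acly and Aacs were highest in astrocyte-like cells of the wild-type library only.

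In astrocyte-like cells the sterol enzymes as a group were lower in the knock-in than in the wild-type library, and the difference was not limited to the pair of genes that chose the list. The summed level in the knock-in library was 62.9% of that in the wild-type library (6.25 against 9.94 per 10000, log2 ratio -0.67), and without Hmgcs1 the sums were 8.45 and 5.73. Of the 28 members, 20 passed the filter on low values, and 5 of these were past 1.5-fold lower and 0 higher. Over all 6580 genes that passed the same filter in these cells, 0.638% were past 1.5-fold lower and 1.63% higher. The 5 are Hmgcs1, Aacs, Fdft1, Msmo1 and Cyp51. The median log2 ratio of the 20 members was -0.29, against -0.01 over all genes, and 18 of the 20 lay below 0, against 53.0% of all genes. With Hmgcs1 and Aacs set aside, 16 of 18 lay below 0 and 3 were past 1.5-fold lower. Over all genes, the 5th and 95th percentiles of the ratio were -0.33 and 0.36. With 0.5 in place of 0.1 added to the levels, 2 members were past 1.5-fold lower and 0 past 2-fold.

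**Figure D2:**
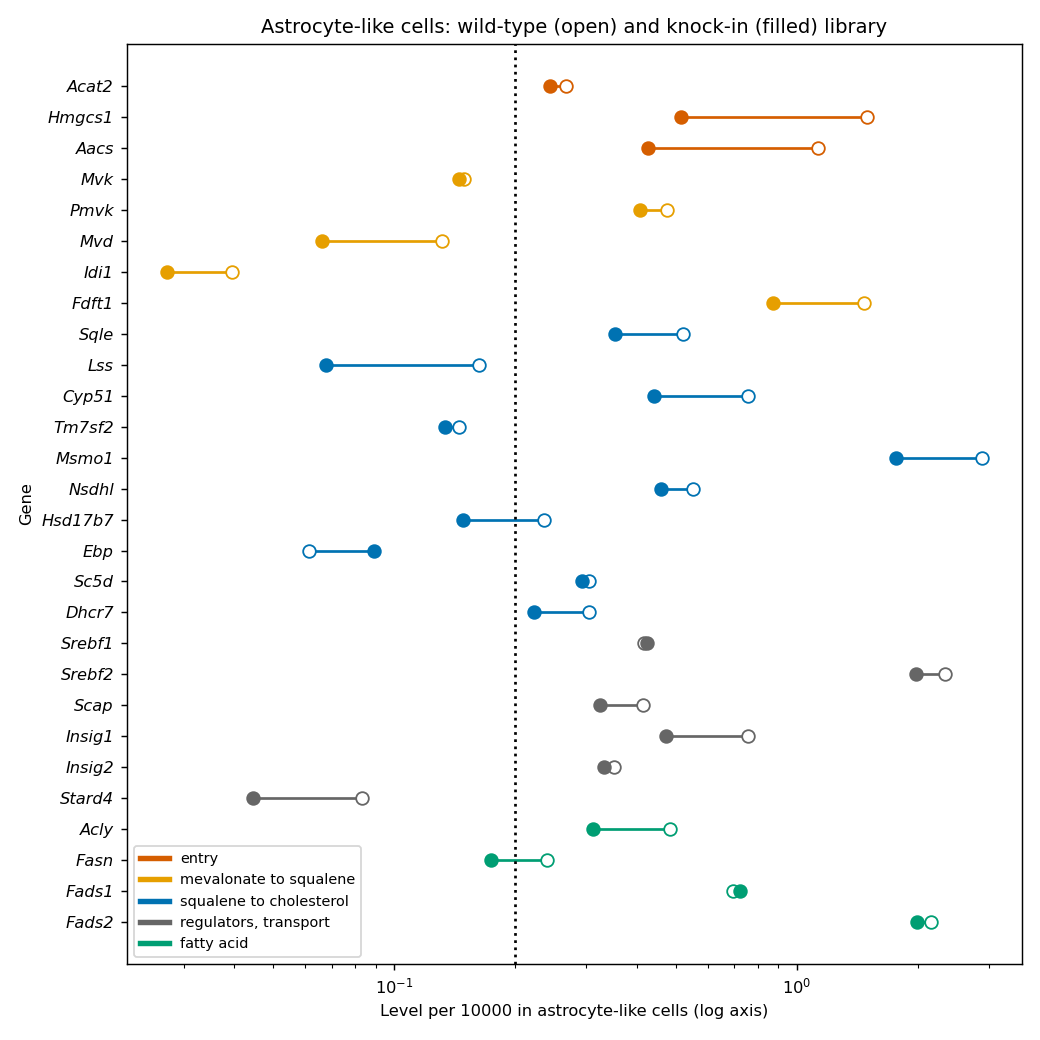
Level per 10000 (log axis) of each member in astrocyte-like cells of the wild-type (open circle, 608 cells) and the knock-in library (filled circle, 828 cells), coloured by role; the dotted line marks 0.2 per 10000. The longest shifts to the left are those of Hmgcs1, Aacs and Lss; Srebf1, Fads1, Sc5d and Mvk barely move.

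Among the members, Hmgcs1 and Aacs held the largest differences. They chose the list, so no place of the largest difference in the pathway is read from them. Hmgcs1, the cytosolic HMG-CoA synthase (chromosome 13, 119690379 to 119708260, plus strand, GENCODE M21 on GRCm38), had a level of 1.49 per 10000 in wild-type cells against 0.516 in knock-in cells, 2.57-fold lower (log2 ratio -1.36). This was the 6th lowest ratio of the 6580 genes. Aacs, which makes acetoacetyl-CoA from the ketone body acetoacetate in the cytosol (chromosome 5, 125475814 to 125517410, plus strand), was at 1.13 and 0.428, 2.33-fold lower (log2 ratio -1.22), and ranked 7th. These are the values behind the choice of the list. They were the 2 members past 2-fold lower; over all genes 0.152% were. Acat2, the cytosolic thiolase that joins acetyl-CoA units, was at 0.267 and 0.244 (log2 ratio -0.09).

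A smaller share of knock-in cells had any Hmgcs1 value, and those that did had less, with a mean of 1.55 against 2.72 in wild-type cells. Of the wild-type astrocyte-like cells, 45.4% had an Hmgcs1 value (exact Clopper-Pearson 95% interval 41.4 to 49.4) against 27.9% of the knock-in ones (24.9 to 31.1), and a value of at least 2 in 30.3% and 9.42%. After thinning each cell to a total of 1000, the shares were 12.7% and 3.99%. Dentate granule neuron-like cells, the class of lowest Hmgcs1 level, had shares of 6.69% and 8.73%, and 0.498% and 0.794% after thinning, at median totals of 9944 and 10027 against 8126 and 8172 in astrocyte-like cells. For Aacs the shares in astrocyte-like cells were 35.5% (31.7 to 39.5) and 21.7% (19.0 to 24.7), and 10.5% and 4.35% after thinning. In microglia-like cells Aacs was found in 5.84% and 8.13%. The intervals cover counting error only.

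Between mevalonate and squalene, 2 of the 5 enzymes with a row passed the filter. Fdft1, the squalene synthase (chromosome 14, 63145150 to 63179578, minus strand), had a level of 1.47 per 10000 in wild-type cells against 0.874 in knock-in cells, 1.61-fold lower (log2 ratio -0.69), the 20th lowest ratio. It was found in 53.5% (49.4 to 57.5) and 42.4% (39.0 to 45.8) of cells. Pmvk, the phosphomevalonate kinase, was at 0.475 and 0.407 (log2 ratio -0.18). Mvk, Mvd and Idi1 were too low to be read, between 0.0273 and 0.149 in both libraries.

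From squalene to cholesterol, 6 of 10 enzymes passed the filter and all 6 lay below 0. Msmo1 (chromosome 8, 64718139 to 64733792, minus strand) went from 2.88 to 1.76 per 10000, 1.60-fold lower (log2 ratio -0.68, the 22nd lowest ratio). Its share of cells differed less than its amount per cell: 65.8% (61.9 to 69.6) of wild-type and 59.2% (55.7 to 62.5) of knock-in cells had a value, and the mean value in those cells was 3.63 and 2.49. Cyp51, the lanosterol demethylase (chromosome 5, 4081145 to 4104746, minus strand), was at 0.755 and 0.443, 1.57-fold lower (log2 ratio -0.65, the 26th lowest). Sqle, the squalene epoxidase, was at 0.521 and 0.354 (log2 ratio -0.45), short of 1.5-fold.

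The other enzymes of this stretch that passed the filter differed less. Nsdhl, a sterol-4-carboxylate dehydrogenase, was at 0.553 and 0.461 (log2 ratio -0.22), Dhcr7, a reductase of the last steps, at 0.305 and 0.223 (log2 ratio -0.33) and Sc5d, the C5 desaturase, at 0.305 and 0.293 (log2 ratio -0.04). Under the filter lay Lss, the lanosterol synthase, at 0.162 and 0.0676, Hsd17b7 at 0.236 and 0.148, Tm7sf2 at 0.145 and 0.134, and Ebp, the 1 of the 17 enzymes that was not lower in the knock-in library. Msmo1, Hmgcs1, Fdft1 and Cyp51 together made up 81.3% of the difference in the summed level, with 30.3% from Msmo1 and 26.4% from Hmgcs1. The annotation places the end of Fdft1 over 774 bases of Ctsb and that of Cyp51 over 166 bases of Akap9, both on the opposite strand. Whether reads were counted by strand is not given in the sources used here.

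The difference was spread over cells, in sums that include Hmgcs1. The median summed value of the 17 enzymes per astrocyte-like cell was 7, with quartiles of 3 and 11, among wild-type cells, and 4, with quartiles of 2 and 7, among knock-in cells. Cells with no value of any of the enzymes were 6.91% and 7.61%, so this share was alike in both libraries, but a sum of 5 or more was reached by 67.1% of wild-type and 48.3% of knock-in cells. At the top of the range, 16.1% of wild-type and 2.17% of knock-in cells had a sum of 15 or more. The mean number of enzymes detected per cell was 3.96 and 3.30. Cells with an Hmgcs1 value also held more of the other enzymes, with a mean sum of 9.40 against 5.04 in wild-type cells without one, and 6.35 against 4.22 in knock-in cells. Their median number of detected genes was also higher, at 2637 against 2490 and 2825 against 2686. Cells lacking an Hmgcs1 value numbered 332 of 608 (wild-type) and 597 of 828 (knock-in), so they made up unlike parts of their libraries. The split also rests on a gene that chose the list. For both reasons, 5.04 and 4.22 are given as a description only, and no difference between the libraries is read from them.

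**Figure D3:**
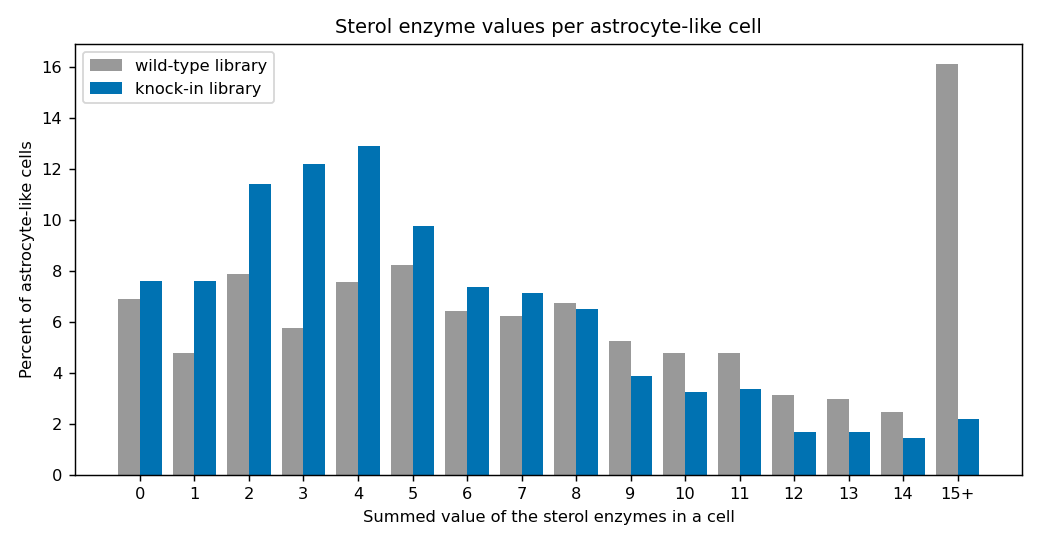
Percent of astrocyte-like cells (vertical axis) at each summed value of the 17 sterol enzymes, Hmgcs1 included, in a cell (horizontal axis; the last bar holds sums of 15 or more), in the wild-type (grey, 608 cells) and the knock-in library (blue, 828 cells). The bars at 0 are of like height, 6.91% and 7.61%, and those at 15 or more are 16.1% and 2.17%.

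Among the regulators, Insig1 differed most. Insig1, itself a target of SREBP-2, had levels of 0.757 (wild-type) and 0.474 (knock-in) per 10000 in astrocyte-like cells (log2 ratio -0.58), 1.49-fold lower and so just short of the 1.5-fold line; Cyp51, at 1.57-fold, was the member just past it. Insig2 was at 0.351 and 0.332 (log2 ratio -0.06). Srebf2 was at 2.34 and 1.98 (log2 ratio -0.23), and was found in 69.2% and 67.3% of cells. Scap was at 0.414 and 0.325 (log2 ratio -0.27) and Srebf1 at 0.418 and 0.424 (log2 ratio 0.02). Stard4, a sterol carrier, was too low to be read (0.0832 and 0.0446).

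The fatty acid enzymes as a group differed less than the sterol enzymes, with a summed level of 3.57 and 3.20 (log2 ratio -0.16). Past 1.5-fold were 0 of 4, where 0.638% of all genes were lower and 1.63% higher, so no result is read from that count. Acly, which makes cytosolic acetyl-CoA from citrate and so feeds both pathways, was at 0.483 and 0.312 (log2 ratio -0.50). Fasn, the fatty acid synthase, was at 0.240 and 0.174 (log2 ratio -0.31). Its mean level, 0.207, was close to the filter, and its ratio lay within the 5th to 95th percentile of all genes (-0.33 to 0.36). Of the desaturases, Fads2 was at 2.15 and 1.99 (log2 ratio -0.11) and Fads1, the delta-5 desaturase, at 0.693 and 0.722 (log2 ratio 0.05). Fads2 was found in 69.9% (66.1 to 73.5) and 71.7% (68.5 to 74.8) of cells.

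Among other genes of sterol and fatty acid synthesis, listed by function, differences were mostly small. Of the 21 reported here, 15 passed the filter in astrocyte-like cells. Past 1.5-fold lower was 1, against 0.638% of all genes, and past 1.5-fold higher were 0, against 1.63%. The lower gene was Acss2, which makes acetyl-CoA from acetate, at 1.47 and 0.911 (log2 ratio -0.63). Not past 1.5-fold were Acaca, the acetyl-CoA carboxylase, at 3.73 and 3.59, the desaturase Scd2 at 2.07 and 2.17 and the reductase Tecr of fatty acid elongation at 1.98 and 2.13. The median log2 ratio of the 15 was -0.05, and 9 of them lay below 0. Elovl6, at 1.33 and 0.920 (log2 ratio -0.48), and Elovl5, at 0.743 and 0.568 (-0.34), were short of 1.5-fold. Both lay below the 5th percentile of all genes (-0.33), while the highest ratio of the list was 0.34.

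Genes for the export, uptake and turnover of sterols did not lean lower in astrocyte-like cells of the knock-in library. Of 20, 10 passed the filter, with a median log2 ratio of 0.06, and 3 of these lay below 0, against 53.0% of all genes. In either direction 0 were past 1.5-fold. Over all genes 0.638% were past it lower and 1.63% higher, so no result is read from a count of 0 among so few genes. Apoe was at 28.2 and 32.8 per 10000 (log2 ratio 0.22), the cholesterol exporter Abca1 at 1.70 and 1.87 (0.13), and Soat1, which esterifies cholesterol, at 1.62 and 1.43 (-0.17). Ketone body genes had a median of 0.12 over 6 genes, with the mitochondrial transferase Oxct1 at 2.11 and 2.33 and Acat1 at 0.774 and 0.921. Genes of the isoprenoid branches that leave the pathway before squalene had a median of -0.06 over 6, with Pdss2 at 1.41 and 1.30 and Dhdds at 1.20 and 1.10. In both of these lists 0 genes were past 1.5-fold, from which no result is read either.

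**Figure D4:**
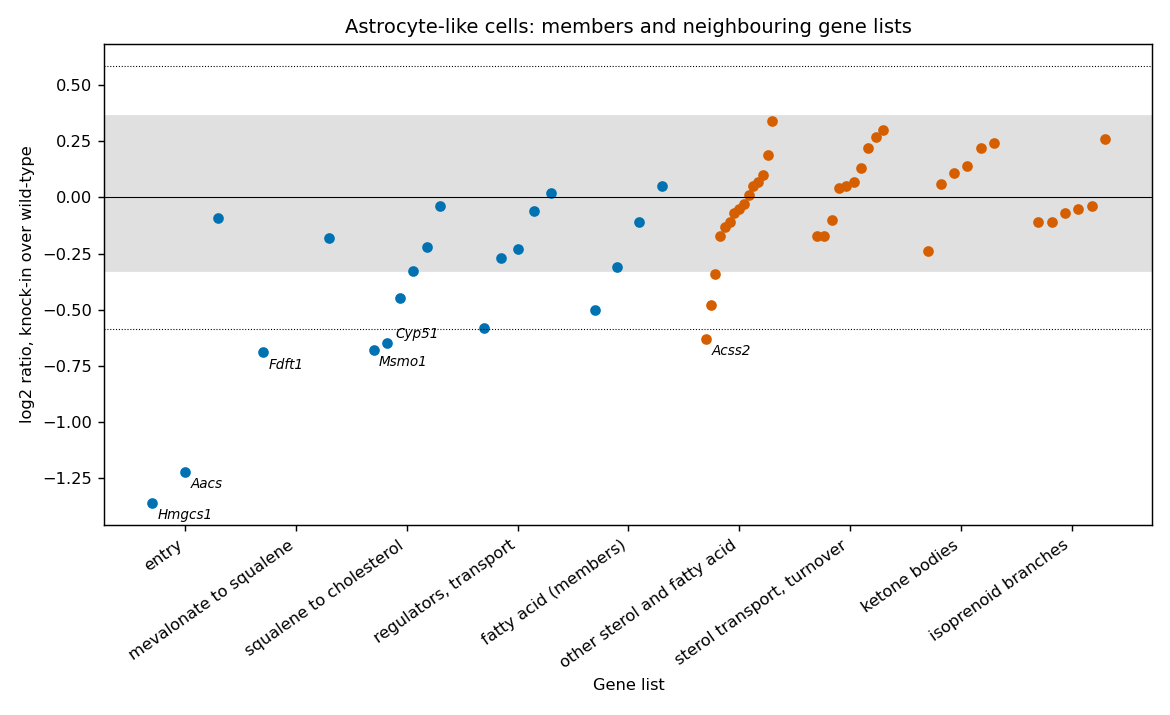
Log2 ratio, knock-in over wild-type, of each gene whose mean level reached 0.2 per 10000 in astrocyte-like cells, by gene list (blue, members; orange, other lists); the grey band spans the 5th to 95th percentile of all 6580 genes (-0.33 to 0.36) and dotted lines mark 1.5-fold. Genes past the lower line are named and lie in the sterol lists, with Acss2 among the other sterol and fatty acid genes shown.

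The class consisted of 2 clusters, and the difference was present in both. The cluster led by Rgs20, Slc1a2 and Rorb (531 wild-type and 728 knock-in cells) had sums of 9.98 and 6.23 (log2 ratio -0.68), and the one led by Myoc, Gfap and Aqp4 (77 and 100 cells) 9.62 and 6.41 (log2 ratio -0.59). Hmgcs1 went from 1.49 to 0.479 in the first and from 1.44 to 0.792 in the second, and Aacs from 1.09 to 0.415 and from 1.36 to 0.528. Msmo1 went from 2.89 to 1.76 and from 2.75 to 1.70. Sqle differed in the first (0.541 and 0.348) and hardly in the second (0.387 and 0.396).

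Other measures also moved between the libraries in these cells. All 12 astrocyte markers were present in both, 0 of them past 1.5-fold, with summed levels of 116 and 131. The summed level of the 10 microglia markers was 1.22 in wild-type and 2.43 in knock-in cells, with 3 of the 4 that passed the filter past 1.5-fold higher, and that of 10 fibroblast markers 2.90 and 5.12 (Col3a1 and Igf2 at 0), and of 10 choroid plexus markers 2.00 and 3.60. Markers of mature oligodendrocytes summed to 4.93 and 5.07 and those of dentate granule neurons to 32.8 and 28.5. Mitochondrially encoded transcripts were at 27.2 and 52.1 per 10000, and Malat1 at 426 and 529. A set of 84 wild-type and 85 knock-in astrocyte-like cells had no value of any of 8 markers of oligodendrocytes, microglia and neurons. Markers of fibroblasts and choroid plexus were not among the 8. The log2 ratio of the summed enzymes in these cells was -1.06. It was -0.66 in the 304 wild-type and 330 knock-in cells whose mitochondrial share lay within the interquartile range of the wild-type class. It was -0.66 in the 304 and 387 cells chosen likewise by Malat1, and -0.67 without called doublets (595 and 788 cells). What part these measures had in the result was not tested.

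Outside the astrocyte-like class, the ratio of the summed enzymes lay between -0.29 and 0.24, and its sign differed between classes. Pyramidal neuron-like cells (1244 and 1562) had a log2 ratio of -0.19. Of their 12 members that passed the filter 0 were past 1.5-fold lower (0.267% of all genes were), and 11 lay below 0, against 44.7% of all genes. Hmgcs1 was at 0.349 and 0.245 in these cells (log2 ratio -0.38), Msmo1 at 0.425 and 0.314 (-0.34) and Cyp51 at 0.307 and 0.222 (-0.34). Srebf2 was at 1.25 and 0.922 (-0.40) and Aacs at 0.625 and 0.513 (-0.24). All of these ratios lay below the 5th percentile over all genes of the class, -0.23. The largest cluster of the class held 805 wild-type and 945 knock-in cells. Another, led by Gm28928, Cdh18 and Rai14, held 105 and 222 and met 5 of the 12 pyramidal neuron markers. The part of this make-up in the ratios was not tested.

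Interneuron-like cells (238 and 481) resembled pyramidal neuron-like cells, with a log2 ratio of the sum of -0.18. Of 13 members 10 lay below 0 (44.0% of all genes did) and 0 were past 1.5-fold lower (0.51% of all genes were). Fdft1 was at 0.473 and 0.304 (log2 ratio -0.51), Cyp51 at 0.430 and 0.289 (-0.45), Srebf2 at 1.03 and 0.703 (-0.49) and Hmgcs1 at 0.367 and 0.264 (-0.36). These ratios lay below the 5th percentile over all genes of the class, -0.29. Insig2 went the other way, at 0.290 and 0.441 (0.47), above the 95th percentile of 0.39. A cluster led by 6330411D24Rik, Lef1 and Otx2os1 held 82 wild-type and 226 knock-in cells of this class, and met 5 of the 12 interneuron markers. The other cluster held 156 and 255 cells and met 10 of the 12. The make-up of the class thus differed between the libraries, and its part in these ratios was not tested.

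Mature oligodendrocyte-like cells (1478 and 1449), the myelin-forming class, showed no such difference. Their summed enzymes had a log2 ratio of 0.18. Of 14 members 4 lay below 0, against 50.3% of all genes, and 0 were past 1.5-fold lower (0.764% of all genes were). Hmgcs1 was at 0.257 and 0.321 (log2 ratio 0.24), Msmo1 at 0.531 and 0.643 (0.23), Fdft1 at 0.564 and 0.592 (0.06) and Srebf2 at 1.74 and 1.78 (0.03). Oligodendrocyte precursor-like cells had a log2 ratio of the sum of 0.24, with Msmo1 at 0.184 and 0.221 and Cyp51 at 0.19 and 0.221. Of 9 members in that class 0 were past 1.5-fold lower (0.582% of all genes were).

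**Figure D5:**
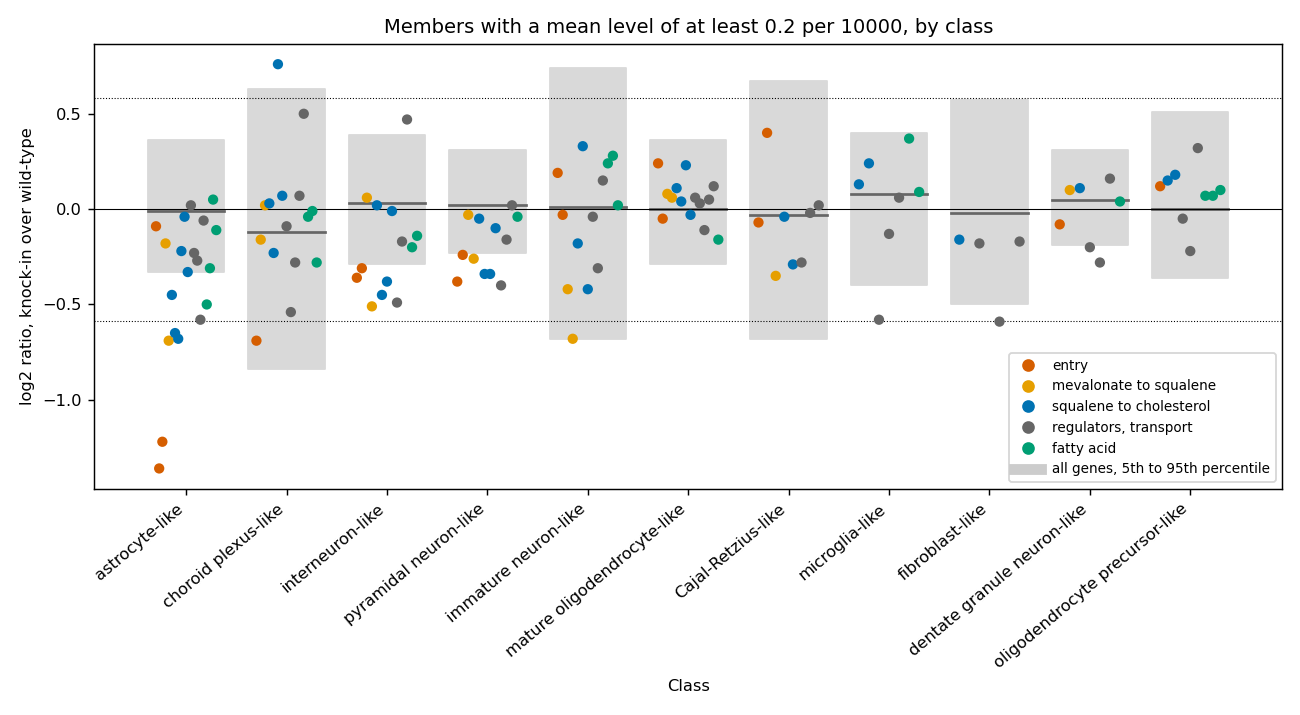
Log2 ratio, knock-in over wild-type (vertical axis), of each member whose mean level reached 0.2 per 10000, by class (horizontal axis), coloured by role; grey boxes span the 5th to 95th percentile of all genes of that class with their median as a line, and dotted lines mark 1.5-fold. In astrocyte-like cells 5 members lie past the lower line and outside the box. In pyramidal neuron-like and interneuron-like cells, whose boxes are narrow, members also lie below the box but not past the line. The box itself passes the lines in choroid plexus-like, immature neuron-like and Cajal-Retzius-like cells.

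Smaller or noisier classes gave single members past 1.5-fold, where many genes were. In choroid plexus-like cells (102 and 91), 15 members passed the filter; Hmgcs1 was lower (0.659 and 0.371, log2 ratio -0.69) and Ebp higher (0.205 and 0.418, 0.76), while 15.5% of all genes in that class were past 1.5-fold lower and 6.16% higher. In immature neuron-like cells (67 and 94) Fdft1 was the 1 of 13 members past 1.5-fold lower (0.597 and 0.334, log2 ratio -0.68), as were 7.46% of all genes. In fibroblast-like cells (109 and 248) Scap was the 1 of 4 (0.588 and 0.357, log2 ratio -0.59), as were 3.06% of all genes. With such shares over all genes, no result about the members is read from these calls. Cajal-Retzius-like cells (63 and 100), where 7.84% of all genes were past 1.5-fold lower, had 0 of 8 members past it and sums of 2.19 and 2.20.

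Microglia-like cells (668 and 861) had sums of 1.80 and 2.11 (log2 ratio 0.23) and 0 of 7 members past 1.5-fold lower (1.52% of all genes were). Srebf2 was at 0.644 and 0.397 there (log2 ratio -0.58), the lowest ratio of Srebf2 in any class. An Srebf2 value was present in 32.5% and 18.9% of these cells, but one of at least 2 in 8.83% and 9.29%. Acly was at 0.286 and 0.399 (0.37). Dentate granule neuron-like cells (1406 and 1386) had sums of 1.65 and 1.90 (log2 ratio 0.20), with 0 of 7 members past 1.5-fold lower (0.168% of all genes were), and Srebf2 at 0.606 and 0.516. That class was made of 2 clusters, 1 with 1080 wild-type and 603 knock-in cells and 1 with 326 and 783. Across classes, Srebf2 was lower in the knock-in library in 10 of 11 and Scap in 11 of 11, whereas Hmgcs1 was lower in 6 and Aacs in 7. These counts include classes where the gene was under the filter. They also include ratios near 0, such as -0.02 for Scap in Cajal-Retzius-like and -0.04 for Srebf2 in immature neuron-like cells. The share of all genes lower in as many classes was not computed, so no result about the regulators is read from these counts. The endothelial-like, ependymal-like and mural-like classes were too small for ratios. Fads2 was at 1.05 and 1.40 in the 18 and 14 ependymal-like cells.

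Levels of the members over classes mostly ran together. Over the 22 points given by 11 classes in 2 libraries, Pearson's r between the log2 level of a member and that of the other summed enzymes was 0.908 for Hmgcs1, 0.875 for Fdft1, 0.874 for Insig1 and 0.834 for Msmo1. It was -0.185 for Ebp, -0.141 for Insig2 and -0.133 for Scap. These genes were highest outside astrocyte-like cells in both libraries, as was Tm7sf2, for which r was 0.303. Among 4027 genes outside the lists, those most like the summed enzymes were Bmpr1b (r = 0.868), Rmst (0.829), Prdx6 (0.798), Slc39a12 (0.770) and Nwd1 (0.759). Bmpr1b was at 6.22 and 6.00 per 10000 in astrocyte-like cells, Rmst at 5.27 and 5.97, Prdx6 at 3.24 and 3.27, Slc39a12 at 3.55 and 4.07 and Nwd1 at 5.49 and 5.24. Their ratios between the libraries lay between -0.06 and 0.19. Most genes in these cells had small ratios (5th and 95th percentiles -0.33 and 0.36), so nothing particular to the pathway is read from these 5 genes. The points share libraries and the astrocyte-like class weighs heavily in each r.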

How the data were processed

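Hippocampi were dissociated mechanically at 4 °C and the suspensions went straight into droplet libraries, per the labels' protocols. The authors deposited a single table of 30223 genes by 15930 cells whose values are whole numbers but depth-corrected, so they were treated as a score: totals per cell lay between 4846 and 14501, and since single values may not stand for sequenced molecules, counts were not modelled. Seurat 3.0.0 and GRCm38 are named in the submitters' processing notes; the aligner, how cells were filtered and whether doublets were removed are not given in the sources used here. The members and all gene lists were chosen with earlier results of these data known.

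Cells were scaled to 10000, log-transformed and clustered with scanpy 1.11.5 under Python 3.11.15 on 2000 variable genes without sex-linked and pathway genes, 30 principal components, 15 neighbours and Leiden resolution 1, without batch correction. Clusters were named from at least 3 detected markers (in at least 25% of cells, 1.5-fold over other cells) by a rule taken over from earlier work and set after clusters had been seen. Scrublet called 61 wild-type (0.86%) and 209 knock-in doublets (2.37%), which were kept. Called genes had a ratio past 1.5-fold at a mean level of at least 0.2 per 10000, with 0.1 added to levels of single genes. Named genes are members with at least 0.5 per 10000 in astrocyte-like cells, past 1.5-fold in any class or highest in a class, the genes of other lists past 1.5-fold or among the 3 of highest unscaled level, and the 5 most like the summed enzymes; further members and genes were named after their values were seen. Intervals are exact Clopper-Pearson 95% ones. The script was tested on simulated data. Part of the list of other sterol and fatty acid genes is not reported here. Alternatives are listed in the closing section.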

Additional observations from a re-analysis of the deposited data

How the results depend on the processing

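Under 13 other settings, and 6 more chosen after seeing the data, astrocyte-like cells kept the highest summed enzyme level in both libraries wherever classes were recomputed, and no called difference changed sign. The log2 ratio of their sum (-0.67) ranged from -1.06 to -0.56: it was -1.02 with values of 1 set to 0, -0.59 with the median gene ratio set to 0 and -0.56 without Hmgcs1 and Aacs. It was -0.59 without the cluster led by Rgs20 and -1.06 in cells with no value of 8 markers of other cell types. The median of the members (-0.29) was -0.15 with a pseudocount of 0.5, -0.62 at a mean level of at least 0.5, -0.60 with values of 1 set to 0 and -0.60 in cells without those markers. The count of members past 1.5-fold lower (5) was 2 with a pseudocount of 0.5, 8 with values of 1 set to 0, 3 without Hmgcs1 and Aacs and 10 without the markers. Past 2-fold (2) there were 0 with a pseudocount of 0.5, 1 without the cluster led by Rgs20 and 4 without the markers. The number of classes whose sum was lower in the knock-in library (5) was 9 with values of 1 set to 0. The causes were not tested. The other log2 ratios in astrocyte-like cells ranged from -1.83 to -0.79 for Hmgcs1, -1.57 to -0.66 for Aacs, -1.17 to -0.58 for Msmo1, -1.15 to -0.52 for Fdft1, -1.0 to -0.41 for Cyp51 and -0.28 to 0.13 for Fads1. The summed ratio of pyramidal neuron-like cells stayed between -0.59 and -0.09 and that of mature oligodendrocyte-like cells between 0.02 and 0.25, while in immature neuron-like cells it ranged from -0.61 to 0.19. No paired analysis was possible because each genotype was a single library.

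The depth of sequencing of a cell is unknown from depth-corrected values, so members of low level (8 of 28 in astrocyte-like cells) could not be read. Differences between mice, dissections and libraries cannot be told apart from genotype.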
